A study of Mus musculus with 10 samples.

Results

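MHC class II antigen presentation genes were followed in the cells of mouse inguinal white adipose tissue. The 10 members were H2-Aa, H2-Ab1, H2-Eb1, Cd74, H2-DMa, H2-DMb1, H2-DMb2, H2-Oa, H2-Ob and Ciita. They were chosen by symbol from the 14623 genes of the count table, and all 10 were listed and had at least 1 unique molecular identifier (UMI, the tag that marks a captured mRNA molecule). The cells came from the stromal vascular fraction (SVF), which is what remains of digested fat once the adipocytes are taken off, of a lean Bbs8-/- (KO) mouse and a lean Bbs8+/+ (WT) mouse, both 7 weeks old. BBS8, encoded by Ttc8, is a subunit of the BBSome, a complex that moves membrane proteins in and out of the primary cilium, and the deletion was not limited to a cell type. The study asked how loss of ciliary function changes the cells of this depot.

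The table held 8985 KO cells with 3144195 UMIs in all and 1929 WT cells with 715989 UMIs, at a median of 251 and 278 UMIs per cell. Cells carried the codes of 10 barcode sets, 5 per genotype. The labels list 5 samples per genotype but the series text names 1 mouse per genotype, so every comparison between KO and WT below compares these animals, without a replicate mouse and without a test. The meaning of the code numbers (KO5 and KO6, WT3 and WT4) was not explained, so arrays and animals could not be told apart. Intervals are exact 95% intervals that cover counting error only, and ranges over barcode sets are given beside them. Ttc8 had 0 UMIs in every KO set and 5 UMIs in WT, all 5 in set WT4_p2, so the targeted gene was too rare to check the labels set by set. Of 10847 barcodes, 36 occurred in more than 1 set.

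MHC class II molecules present peptides from the endosome to CD4+ T cells. An alpha and a beta chain (H2-Aa with H2-Ab1 in the A molecule, H2-Eb1 as the beta chain of the E molecule) assemble with the invariant chain Cd74, which fills the peptide groove and leads the complex to the endosome. There H2-DM, made of H2-DMa and an H2-DMb chain, exchanges the remaining fragment of Cd74 for antigenic peptide, and H2-O, made of H2-Oa and H2-Ob, restrains H2-DM, above all in B cells. Ciita is the coactivator that switches on the whole group. It binds no DNA itself and is recruited by factors that sit on conserved X and Y boxes before class II genes. B cells, dendritic cells and activated macrophages are the professional carriers of these molecules, whereas mouse T cells and resting fibroblasts lack them.

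RefSeq promoter windows of 300 bases (250 before the start and 50 after it, GRCm38.p6) were given for 7 members. They are shown because the X and Y boxes are the elements that bring Ciita to these genes. The core of the X box (GCAAC) occurred on either strand in 35.2% of 32851 windows of all genes and the Y box (ATTGG) in 37.4%. The boxes do not overlap each other. Both on the strand of the gene with starts 28 to 36 bases apart were found in 69 windows (0.210%), and 4 of these genes were members. The stretches from X to Y are printed with both boxes in capitals.
H2-Aa, chr17:34287864-34287907, minus strand: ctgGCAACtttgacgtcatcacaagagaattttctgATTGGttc
H2-Eb1, chr17:34305773-34305815, plus strand: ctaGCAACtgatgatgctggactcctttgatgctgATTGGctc
H2-Oa, chr17:34092300-34092343, plus strand: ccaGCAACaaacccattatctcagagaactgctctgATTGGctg
H2-Ob, chr17:34238815-34238855, plus strand: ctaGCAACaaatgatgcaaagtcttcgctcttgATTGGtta
The starts of the boxes were 33 bases apart in H2-Aa and H2-Oa, 32 in H2-Eb1 and 30 in H2-Ob. In H2-DMb1 and H2-DMb2 the Y box was in place and the letters of the X core were not, with only the Y box in capitals.
H2-DMb1, chr17:34153094-34153137, plus strand: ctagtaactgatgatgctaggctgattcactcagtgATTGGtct
H2-DMb2, chr17:34145123-34145166, plus strand: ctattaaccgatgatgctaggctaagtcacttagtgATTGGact
The 2 windows of H2-DMa held no such pair. A match is a description of letters in this window and does not show a bound factor.

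In GRCm38 with the GENCODE vM21 annotation, 8 members lay within 224 kb on chr17:34092340-34316674, in the MHC. Ciita lay on chr16:10480059-10528418 and Cd74 on chr18:60803848-60812652, both on the plus strand. H2-Eb1, H2-DMa, H2-Oa and Ciita overlap genes on the opposite strand, and whether the counting used strand was not stated, so reads of these neighbours could not be told apart. H2-DMb1 and H2-DMb2 are near copies over most of their length (89.0% to 92.8% identical bases over aligned transcripts). Of the last 500 bases only 305 to 311 aligned, and 81.6% to 82.0% of those were identical. How well the reads separate the copies was not tested, so the split of UMIs between them is uncertain.

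Cells were grouped by clustering with the class II genes kept out of the features, and clusters were named from marker lists. This gave B cell-like (1024 KO and 72 WT cells), monocyte-like (344 and 139), macrophage-like (526 and 132), dendritic-like (169 and 25), stromal-like (2116 and 763), endothelial-like (580 and 186), T cell-like (1072 and 127), epithelial-like (256 and 144), pericyte-like (72 and 25) and mitotic (111 and 37) cells, while 2715 KO and 279 WT cells stayed unnamed. Dendritic-, macrophage- and monocyte-like cells together are called myeloid-like. The B cell-like cluster was led by Ms4a1, Igkc, Cd22 and Pax5, the macrophage-like cluster by Cd163, Lyve1 and Folr2, and the monocyte-like cluster by Lyz1, Ear2 and Ccr2, with H2-DMb1 also among its 10 leading genes. B cell-like cells were 11.4% of KO cells and 3.73% of WT cells, and their number per WT set ran from 2 to 39. Of 943 cells in one unnamed cluster, 940 came from set KO6_p1.

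The members were unequal in abundance. Over the whole table H2-Ab1 had 12559 UMIs, H2-Eb1 5843, H2-Aa 4449 and Cd74 3423, and these 4 are called the classical genes and are summed below. H2-DMa had 1068 UMIs, H2-Ob 792, H2-DMb2 577, Ciita 516, H2-DMb1 354 and H2-Oa 250. Levels are UMIs of a gene scaled to 1000000 UMIs of the class (CPM). They are compared between cell classes for a gene, and between genes only as shares of molecules counted from tags.

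The classical sum was highest in monocyte-like cells in both mice, at 32549.6 CPM in KO and 22595.8 CPM in WT. Dendritic-like cells followed with 20343.5 CPM (range over sets 5904 to 28620) and 19466.6 CPM (4878 to 34505). B cell-like cells had 17772.5 CPM in KO and 10613 CPM in WT, and macrophage-like cells 6520.9 and 8840.1 CPM. The ranges of dendritic-like cells over sets overlapped those of their neighbours in this order, and in WT those of B cell-like and macrophage-like cells overlapped each other, whereas in KO each B cell-like set lay above each macrophage-like set. Below these stood epithelial-like (5609 and 1311 CPM), endothelial-like (2695 and 974), stromal-like (2575 and 744), T cell-like (2192 and 3810) and pericyte-like cells (1498 and 782). Mitotic cells had 7334 and 8819 CPM and unnamed cells 6532 and 4058 CPM.

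**Figure D1:**
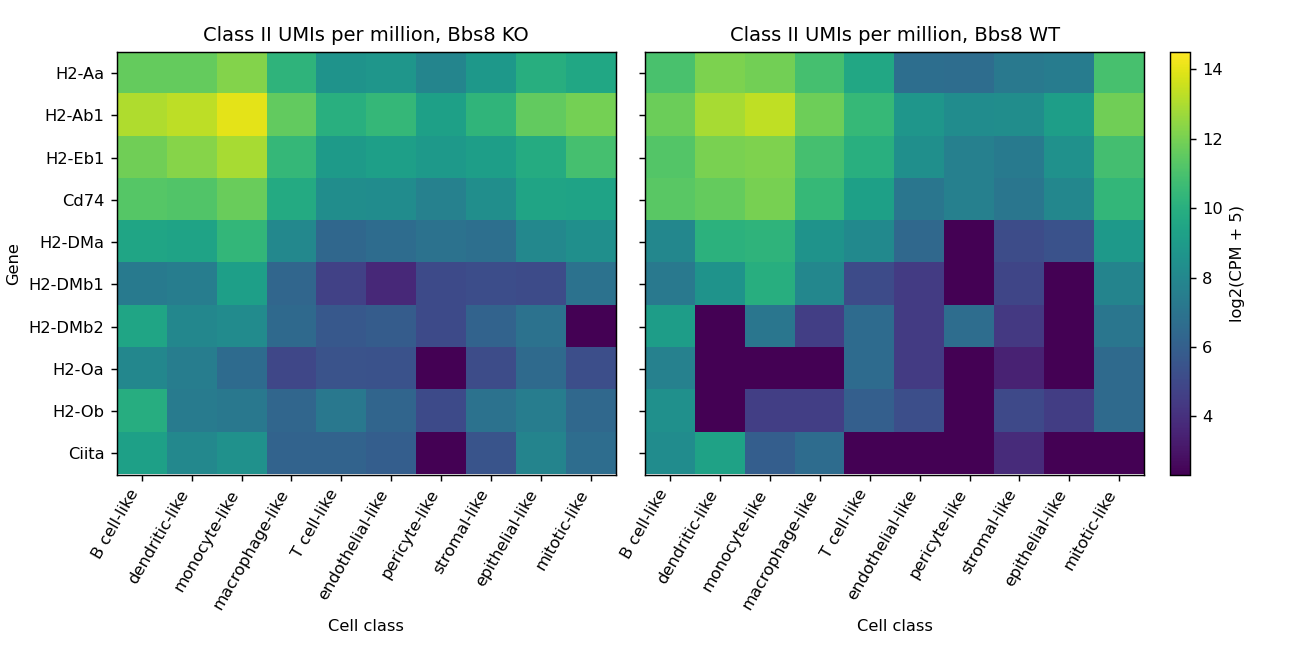
Levels of the 10 class II members (rows) in 10 cell classes (columns), as log2(CPM + 5), for the KO mouse and the WT mouse in separate panels. The classical genes are brightest in monocyte-, dendritic- and B cell-like cells in both mice, except for H2-Ab1 in WT. There B cell-like cells (3455 CPM) are slightly below macrophage-like (3570 CPM) and mitotic cells (3693 CPM). H2-Ob is brightest in B cell-like cells of KO.

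As shares of the classical UMIs of a mouse, B cell-like cells held 28.8% of 23240 UMIs in KO and 7.09% of 3034 UMIs in WT (95% interval 6.20 to 8.06). Myeloid-like cells held 32.9% in KO and 59.9% in WT (58.2 to 61.7), most of it in monocyte-like cells with 19.8% and 39.3%. Stromal-like cells held 9.60% and 8.08%, and unnamed cells 18.5% (17.96 to 18.96) and 9.46% (8.44 to 10.6). B cell-like and myeloid-like cells were thus the largest holders in KO, beside a large unnamed part, while myeloid-like cells held most of the WT UMIs. Some of these shares depended on how cells were grouped. The KO share of stromal-like cells was 2.40% at resolution 1.2, 2.46% with class II genes as clustering features and 2.55% without the highest doublet scores. It was 24.6% with cells called from marker UMIs, where the WT share was 22.3%. The size of the class changed with it. In the same order, stromal-like cells of both mice numbered 867, 943, 971 and 5360, against 2879 in the main clusters. Unnamed cells numbered 4895, 4795, 4920 and 1406, against 2994. The WT share of B cell-like cells was 13.2% with class II genes as features. In KO, Ciita and H2-Ob were placed more toward B cells. There 47.2% of 763 H2-Ob UMIs and 46.5% of Ciita UMIs lay in B cell-like cells, against 6.55% and 17% in myeloid-like cells. WT held only 29 H2-Ob and 23 Ciita UMIs. Of these 7 and 6 were in B cell-like cells and 2 and 13 in myeloid-like cells, so Ciita had the opposite order in WT.

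Among B cell-like cells 96.9% of KO and 79.2% of WT cells had a classical UMI, and 93.9% and 72.3% when each cell was thinned to 200 UMIs. Monocyte-like cells stood at 90.7% and 92.1% (89.9% and 90.6% thinned), and macrophage-like cells at 62.9% and 68.2%. The number of classical UMIs in a cell spread widely within a class. The median was 7 in KO and 5 in WT monocyte-like cells, with 1 KO cell at 171, and 5 in KO and 2 in WT B cell-like cells. Dendritic-like cells had a median of 2 in KO and 3 in WT, although their KO mean was 8.96 and the highest KO cell had 124. At least 5 classical UMIs were found in 36.1% of KO and 44% of WT dendritic-like cells, against 55.3% and 25% of B cell-like cells. T cell-like cells, which should lack these genes, had a classical UMI in 28.8% of KO and 22.8% of WT cells (21.4% and 18.3% thinned, at median depths of 276 and 238 UMIs). Shares at or below this level are not read as expression. WT stromal-like cells (9.9% thinned) and WT endothelial-like cells (12.9%) were below the WT T cell-like share. With cells called from marker UMIs the WT stromal-like share was 25.4% without thinning, against 14.02% in the clusters. KO stromal-like cells (34.0% thinned, median depth 288.5 UMIs) and KO endothelial-like cells (32.9%) were above the KO T cell-like share, and the part of RNA from other cells in these shares was not tested.

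The classes differed in which members accompanied the classical genes. H2-O, the restraining dimer, had 67.2 UMIs (61.2 to 73.6) per 1000 classical UMIs in B cell-like cells over both mice. The same ratio was 8.9 (7.1 to 11) in myeloid-like cells, 5.9 in monocyte-like, 12.5 in macrophage-like and 15 in dendritic-like cells. The mice differed in level. In KO the ratio was 67.7 (61.6 to 74.2) in B cell-like and 10.7 (8.5 to 13.3) in myeloid-like cells, and in WT it was 51.2 (25.5 to 91.5) from 11 UMIs and 1.10 (0.13 to 4.0) from 2 UMIs. The order of the myeloid classes rests on KO, since WT had 1 H2-O UMI each in monocyte-like and macrophage-like cells and 0 in dendritic-like cells. The intervals of B cell-like and each myeloid class did not overlap, within either mouse or over both. Ciita had 34.0 UMIs per 1000 (29.8 to 38.7) in B cell-like and 10.3 (8.3 to 12.5) in myeloid-like cells over both mice, and in WT alone, with 6 and 13 UMIs, these intervals overlapped. H2-DM was more even between classes, with 88.2 (81.3 to 95.4) in B cell-like, 75.5 (68.6 to 82.9) in monocyte-like, 65.5 (54.8 to 77.8) in macrophage-like and 55.1 (44.4 to 67.6) in dendritic-like cells over both mice. The mice differed in this order. In KO monocyte-like cells (68.5, 61.1 to 76.5) lay below B cell-like cells (88.2, 81.2 to 95.6), whereas in WT monocyte-like cells had 102 (85.1 to 122) and B cell-like cells 88.4 (53.2 to 138) from 19 UMIs, with overlapping intervals.

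The H2-DM beta chain differed by class as well. H2-DMb2 gave 82.1% (77.6 to 86.0) of the UMIs of both beta chain genes in B cell-like cells and 26.2% of 183 UMIs in monocyte-like cells over both mice. Within myeloid-like cells the share was 40.9% of 193 UMIs in KO (33.9 to 48.2) and 10.5% of 76 UMIs in WT (4.66 to 19.7). H2-DMb2 thus carried more of the beta chain UMIs in the KO than in the WT mouse, subject to the uncertain split between these copies.

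**Figure D2:**
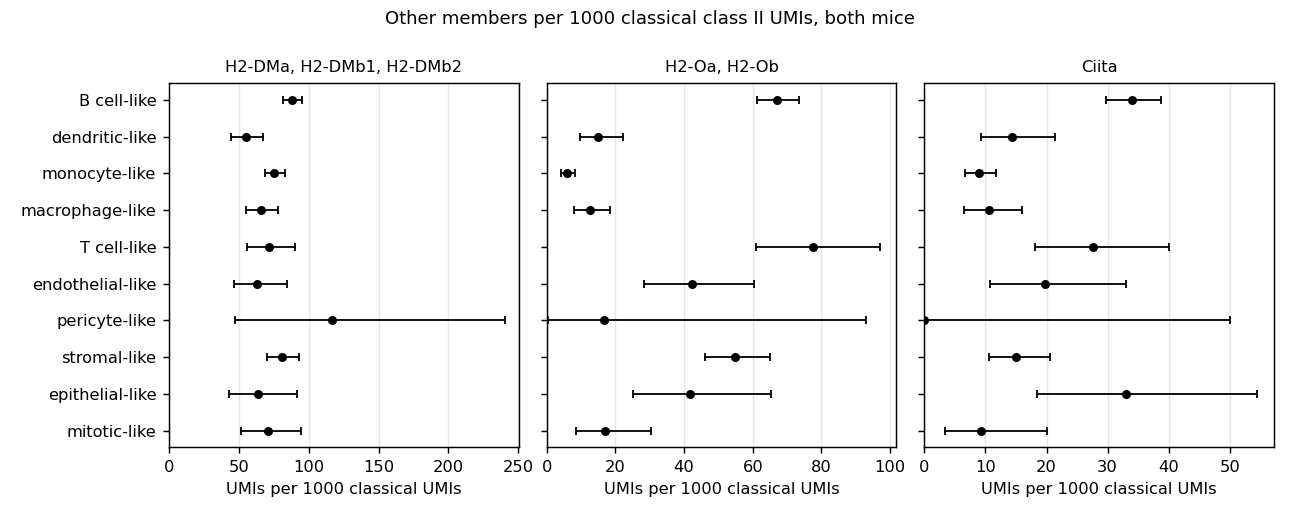
UMIs of H2-DM, H2-O and Ciita per 1000 classical class II UMIs in each cell class over both mice, with exact 95% intervals of counting error. B cell-like cells stand at 67.2 for H2-O and 34.0 for Ciita, and myeloid-like cells at 8.9 and 10.3.

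T cell-like cells had 77.5 H2-O UMIs per 1000 classical UMIs (61.0 to 97.0), stromal-like cells 54.9 (46.1 to 65) and endothelial-like cells 42.2 (28.5 to 60.2). In each of these classes the interval lay above that of myeloid-like cells, although WT gave only 5, 11 and 3 of these UMIs. In T cell-like and stromal-like cells it overlapped that of B cell-like cells.

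B cell-like cells of the KO mouse had more H2-Ab1 than those of the WT mouse, while the log2 ratio of Cd74 was near 0. H2-Ab1, the beta chain of the A molecule, stood at 8042, 8307, 8720, 8325 and 8508 CPM in the KO sets KO5_p2, KO5_p3, KO6_p1, KO6_p2 and KO6_p3. It stood at 5675, 1246, 2068, 3409 and 3881 CPM in WT3_p1, WT3_p2, WT3_p3, WT4_p2 and WT4_p3, where the UMIs behind the values were 15, 3, 2, 38 and 12. All KO sets were above all WT sets, and the log2 ratio of KO over WT was 1.27 (0.93 to 1.64).

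**Figure D3:**
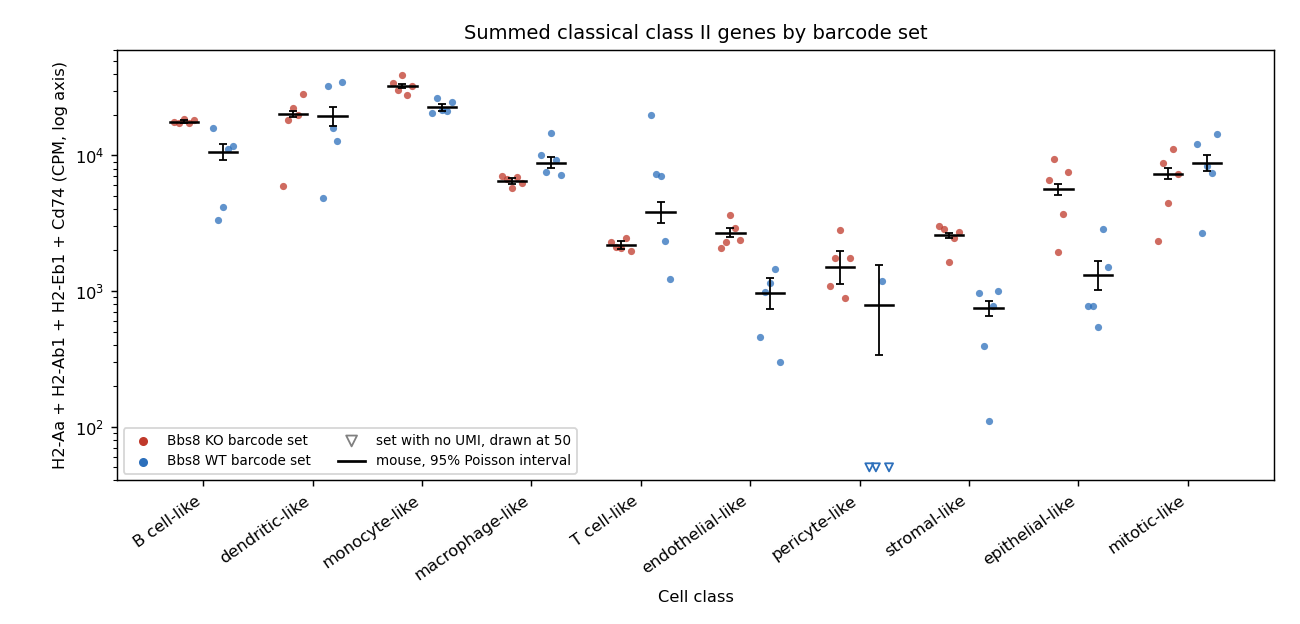
The classical class II sum in CPM (log axis) for each barcode set, by cell class and genotype, with the value of each mouse and its exact 95% Poisson interval as a black bar. Open triangles are sets without a classical UMI, drawn at 50 CPM. KO sets lie above WT sets in B cell-like, monocyte-like, stromal-like and endothelial-like cells and below them in macrophage-like cells.

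Cd74, the invariant chain, stood at 2529, 2283, 2821, 2443 and 2520 CPM in the KO sets of B cell-like cells and at 5675, 831, 1034, 2781 and 1617 CPM in the WT sets. The groups overlapped, and the log2 ratio was −0.09 (−0.49 to 0.33) on the CPM scale. Its sign turned positive with TMM or DESeq2 scaling, which raised every log2 ratio of B cell-like cells by 0.54 and 0.49. The same scalings moved the log2 ratios of dendritic-like cells by 1.03 and 0.91, of T cell-like cells by 0.33 and 0.30, of macrophage-like cells by 0.11 and 0.13, of monocyte-like cells by 0.11 and 0.10 and of stromal-like cells by −0.19 and −0.19. As a share of classical UMIs, Cd74 was 14.1% (13.2 to 14.9) in KO and 25.1% (19.5 to 31.5) in WT B cell-like cells, and H2-Ab1 47.1% (45.9 to 48.3) and 32.6% (26.3 to 39.3). The same order held over all cells, with Cd74 at 12.4% in KO and 17.5% in WT and H2-Ab1 at 48.5% and 42.2%. These shares do not depend on the scaling.

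The alpha chain H2-Aa and the E beta chain H2-Eb1 had smaller ratios in B cell-like cells. H2-Eb1 ran from 3583 to 4053 CPM over the KO sets and from 831 to 2911 CPM over the WT sets (log2 ratio 0.64, 0.23 to 1.08), without overlap. H2-Aa ran from 2888 to 3334 CPM and from 0 to 3234 CPM (0.59, 0.15 to 1.08) and overlapped. The classical sum in the KO sets was 17661, 17322, 18534, 17315 and 18303 CPM and in the WT sets 15891, 3322, 4136, 11213 and 11643 CPM. Every KO set lay above every WT set, with a log2 ratio of 0.74 (0.55 to 0.95). It rests on 215 WT UMIs in 72 cells, and its range when any 1 set was left out was 0.62 to 0.86.

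The accessory members were counted from few WT molecules in B cell-like cells. H2-DMa had 269 UMIs in KO and 5 in WT, all 5 of them in set WT4_p2 (log2 ratio 1.51, 0.29 to 3.17). H2-Ob had 360 and 7 UMIs (1.45, 0.41 to 2.79), and Ciita 229 and 6 (1.03, −0.11 to 2.50). H2-DMb2 had 264 and 11 UMIs (0.37, −0.49 to 1.39), H2-Oa 93 and 4 (0.32, −1.08 to 2.23) and H2-DMb1 57 and 3 (0.03, −1.59 to 2.35). The intervals of H2-DMa and H2-Ob excluded a log2 ratio of 0, and those of the other 4 included it.

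A gene was counted as past the fold when the log2 ratio was at least 1 either way. In B cell-like cells 4 of 10 members were higher in KO by this measure (H2-Ab1, H2-DMa, H2-Ob and Ciita) and 0 were lower. Of 3469 genes with at least 20 UMIs in these cells, 31% were higher and 10.8% lower. The median log2 ratio was 0.62 over the members and 0.28 over all these genes. The share of members past the fold was therefore close to that of all genes, and it fell to 2 of 10 when class II genes were allowed as clustering features or when cells were called from marker UMIs.

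**Figure D4:**
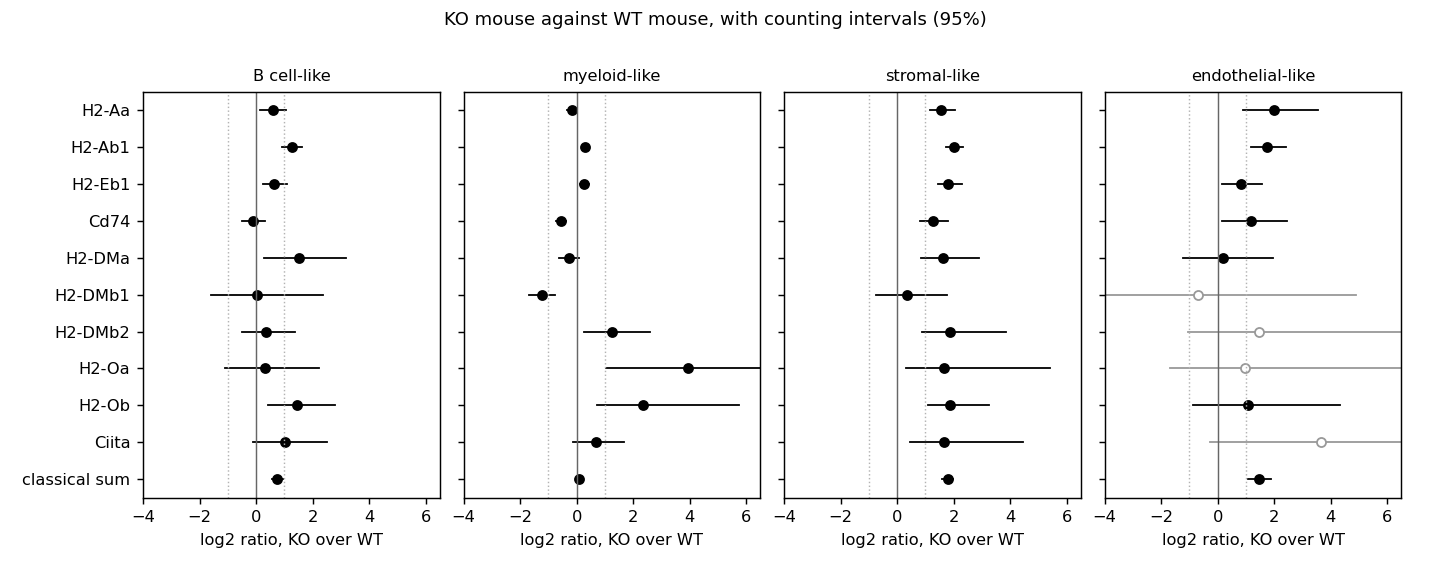
log2 ratio of KO over WT for each member and for the classical sum in B cell-like, myeloid-like, stromal-like and endothelial-like cells, with exact 95% intervals of counting error. Dotted lines mark log2 ratios of -1 and 1, intervals that run past the axis are cut off at its edge, and open grey symbols have fewer than 20 UMIs. In stromal-like cells 9 of 10 members lie past the upper line and in B cell-like cells 4.

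In myeloid-like cells the classical sum was alike in level, at 16986 CPM in KO and 15930 CPM in WT (log2 ratio 0.09, 0.02 to 0.17), and the sets overlapped. Its parts moved apart. Monocyte-like cells had 34010, 30524, 39036, 28118 and 32258 CPM in the KO sets and 20463, 26411, 21799, 21372 and 24723 CPM in the WT sets. All KO sets were higher (log2 ratio 0.53, 0.43 to 0.62), and without integration of the sets the log2 ratio was 0.19. The macrophage RNA list (C1qa, Mrc1, Cd163 and 7 others) was lower in these cells, at 3802 to 4938 CPM over the KO sets and 5064 to 7732 CPM over the WT sets, without overlap (log2 ratio −0.60, −0.79 to −0.41). Of its genes C1qa (−1.39) was past the fold and C1qb (−0.82) was not. Its part in the difference of the classical sum was not tested.

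Macrophage-like cells went the other way. The KO sets had 7084, 6689, 5757, 6978 and 6284 CPM and the WT sets 9986, 7556, 14661, 9237 and 7208 CPM. All KO sets were lower (log2 ratio −0.44, −0.59 to −0.29). Of the classical genes H2-Aa alone kept its sets apart, with each KO set below each WT set (−0.64, −0.98 to −0.31), and Cd74 had a log2 ratio of −0.73 with overlapping sets. The macrophage RNA list stood at 24494 CPM in KO and 28296 CPM in WT macrophage-like cells (log2 ratio −0.21, −0.29 to −0.13), with overlapping sets. Its genes went both ways, from C1qa at −1.04 to F13a1 at 0.38 and Cbr2 at 1.17, and its part in the difference was not tested. Dendritic-like cells, with 25 WT cells, had a log2 ratio of 0.06 (−0.18 to 0.31). It was −0.46 without set WT4_p2 and 0.37 without set WT4_p3, the lowest and highest values when 1 set was left out, 1.10 without integration and 1.41 without the highest doublet scores.

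In monocyte-like cells H2-Ab1 (0.70, 0.57 to 0.84) and H2-Eb1 (0.77, 0.57 to 0.98) were higher in each KO set than in each WT set. Cd74 had a log2 ratio of −0.27 (−0.51 to −0.03) with overlapping sets, and it was 10.3% of classical UMIs in KO and 17.97% in WT monocyte-like cells. Ciita had 6, 9, 17, 5 and 12 UMIs in the KO sets and 1, 1, 0, 1 and 0 in the WT sets. The KO level of 347 CPM stood above the WT level of 56.9 CPM, a log2 ratio of 2.51 (0.98 to 4.93) that rests on 3 WT UMIs.

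Of the 10 members in myeloid-like cells, 3 were past the fold higher in KO and 1 lower, beside 14.6% of 4838 genes higher and 3.84% lower. H2-DMb2 had 79 and 8 UMIs (1.27, 0.28 to 2.59) and H2-Ob 50 and 2 (2.37, 0.74 to 5.75). H2-Oa had 32 UMIs in KO and 0 in WT, which is at least 2.71-fold higher against a floor of 3 counts. H2-DMb1 was the member that was lower, with 254 CPM in KO and 596 CPM in WT (−1.22, −1.68 to −0.78), although its sets overlapped. Most of its UMIs lay in monocyte-like cells, which were 344 of 1039 KO and 139 of 296 WT myeloid-like cells. In monocyte-like cells (83 and 52 UMIs) its log2 ratio was −0.74 (−1.27 to −0.22), not past the fold. In macrophage-like cells (18 and 13 UMIs) it was −1.60 (−2.77 to −0.51). The part of the mix of classes in the myeloid-like ratio was not tested. The median over the members was 0.28 and over all genes 0.13. Beside these values, the B cell RNA list (Cd79a, Ms4a1, Igkc and 8 others) was at 2105 CPM in KO and 824 CPM in WT myeloid-like cells (log2 ratio 1.35, 1.05 to 1.68), with each KO set above each WT set. H2-O, which is rich in B cells, moved with it (3.38, 1.48 to 6.45). Its part in the member ratios was not tested.

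In stromal-like cells most members were higher in KO. The classical sum stood at 3003, 2857, 1644, 2461 and 2714 CPM in the KO sets and at 963, 395, 109, 779 and 1003 CPM in the WT sets. All KO sets were higher, and the log2 ratio was 1.79 (1.60 to 1.99). H2-Ab1 had the largest ratio of the classical genes (2.00, 1.72 to 2.32), followed by H2-Eb1 (1.82), H2-Aa (1.55) and Cd74 (1.26). H2-DMa (1.64), H2-DMb2 (1.86) and H2-Ob (1.88) were past the fold as well. So were Ciita, with 34 and 3 UMIs (1.65, 0.44 to 4.46), and H2-Oa, with 26 and 2 (1.66, 0.31 to 5.43). H2-DMb1 was not (0.35, −0.76 to 1.76).

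In all, 9 of 10 members were past the fold in stromal-like cells, beside 14.2% of 7404 genes, and their median of 1.65 stood beside 0.16 for all genes. The number depended on the clustering: it was 2 of 10 at resolution 1.2 and 4 of 10 when class II genes were allowed as features. In these settings the KO level was 1820 and 1815 CPM and the log2 ratio of the sum 1.202 and 1.43.

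Marker lists of other cell types were higher in the same KO stromal-like cells. The B cell RNA list stood at 1664 CPM in KO and 610 CPM in WT (log2 ratio 1.45, 1.23 to 1.67), or 1408 and 298 CPM without Ebf1 (2.24, 1.94 to 2.55), the T cell RNA list (Cd3e, Trac, Tcf7 and 7 others) at 798 and 188 CPM (2.08) and the macrophage RNA list at 873 and 246 CPM (1.83). Ebf1 gave 221 of the 1441 KO and 103 of the 201 WT list UMIs, and in WT it was higher in stromal-like (313 CPM) than in B cell-like cells (148 CPM, from 3 UMIs), so the list without it was added after seeing the data. Of 11 B cell list genes 9 were past the fold, as were 8 of 8 T cell and 8 of 9 macrophage list genes with at least 20 UMIs. In KO, stromal-like cells with a UMI of the B cell list without Ebf1 had a classical UMI in 55.4% of 332 cells, and those without one in 28.5% of 1291 cells, all thinned to 200 UMIs. In WT the shares were 37.5% of 32 and 8.50% of 635 cells. There were 1.83 classical UMIs for each UMI of the list without Ebf1 in KO and 2.5 in WT stromal-like cells, against 1.03 and 0.71 in B cell-like cells. With Ebf1 the order of the mice in stromal-like cells turned, at 1.55 in KO and 1.22 in WT. How much of the class II signal of stromal-like cells came from RNA of other cells was not tested.

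**Figure D5:**
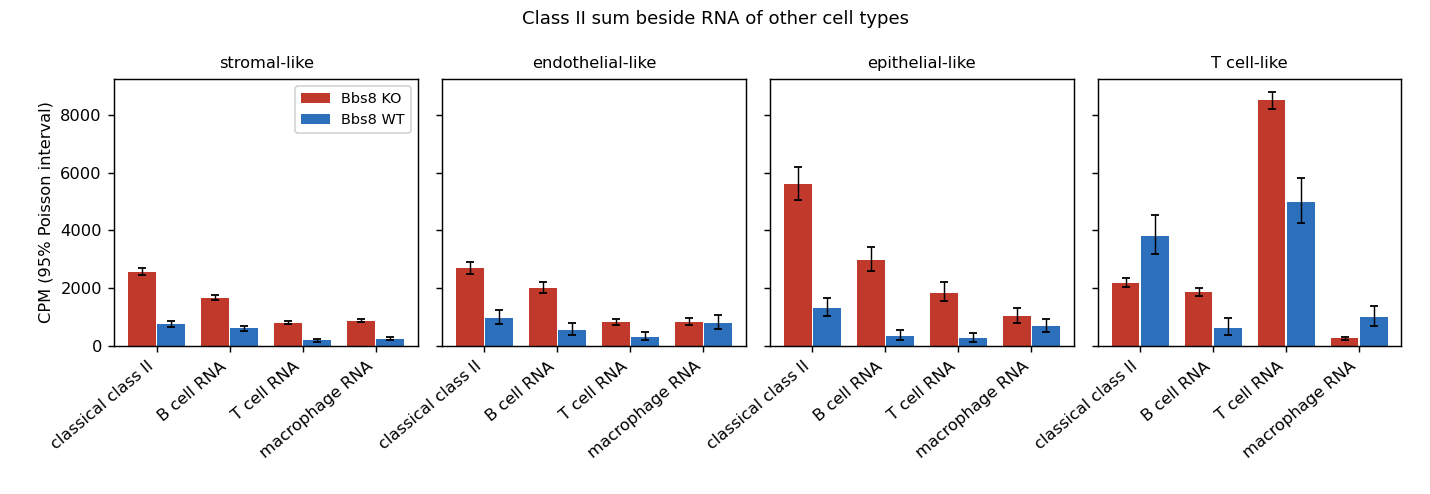
CPM of the classical class II sum and of the B cell, T cell and macrophage RNA lists in stromal-, endothelial-, epithelial- and T cell-like cells of both mice (bars from 0). In stromal-like cells the class II sum (2575 and 744 CPM) and all 3 lists are higher in KO.

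Endothelial-like cells resembled stromal-like cells. The classical sum ran from 2081 to 3617 CPM over the KO sets and from 302 to 1449 CPM over the WT sets, without overlap (log2 ratio 1.47, 1.08 to 1.88, and 0.65 in cells with at least 200 genes). Of 6 members with at least 20 UMIs there, 4 were past the fold higher (H2-Ab1, H2-Aa, Cd74 and H2-Ob), beside 17.6% of 2963 genes. H2-Ob, with 18 and 2 UMIs, had a log2 ratio of 1.06 with an interval that included no difference (−0.89 to 4.32). The count of members past the fold was 1 with class II genes as features or with cells of at least 200 genes. The class then held 567 and 309 cells, against 766 in the main clusters, and members under 20 UMIs were not counted. Without set KO6_p2 or without set WT4_p3 the count was 2. The B cell RNA list was higher in KO here too (2009 against 561 CPM, 1.84, and 2.11 without Ebf1), and the macrophage RNA list was not past the fold (835 against 792 CPM, 0.08). Among KO cells 55.7% of 122 with a B cell list UMI had a classical UMI, and 24.0% of 313 without one.

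T cell-like cells had the opposite order, at 2192 CPM in KO and 3810 CPM in WT (log2 ratio −0.80, −1.07 to −0.52). The KO sets lay between 1963 and 2473 CPM, while the WT sets were spread from 1224 to 19859 CPM, the last in a set of 5 T cell-like cells, so the groups overlapped. The log2 ratio was above 0 in 4 of the alternative groupings of cells. Of 8 members with at least 20 UMIs, 1 was past the fold higher and 3 lower, beside 25.8% and 7.88% of 3730 genes, a share in which genes without a WT UMI are counted. H2-Aa (−1.04), H2-Eb1 (−1.02) and H2-DMa (−1.69) were lower. H2-Ob, with 56 and 2 UMIs, had a log2 ratio of 1.21 with an interval that included no difference (−0.65 to 4.35). Ciita had 27 and 0 UMIs, but its KO level (69.4 CPM) was under what 3 counts would give in WT, so it has no fold. It is 1 of the 8 members but is not counted as higher, whereas the share of all genes does count such genes. The macrophage RNA list was lower in KO T cell-like cells (254 against 982 CPM) and the B cell RNA list higher (1866 against 625 CPM). Epithelial-like cells had a log2 ratio of 2.10 (1.73 to 2.48) beside 3.09 for the B cell RNA list, with overlapping sets, and a ratio of −0.66 when cells were called from marker UMIs. Of 4 members with at least 20 UMIs there, 4 were past the fold higher (H2-Aa at 2.55, H2-Ab1 at 2.44, Cd74 at 1.501 and H2-Eb1 at 1.34), beside 16.2% of 910 genes.

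Summed over all cells of a mouse, the classical genes stood at 7391 CPM (7297 to 7487) in KO and 4238 CPM (4088 to 4391) in WT. The KO sets ran from 6937 to 7688 CPM and the WT sets from 3867 to 4822 CPM, a log2 ratio of 0.80. H2-Ob (2.44), Ciita (2.12), H2-DMb2 (1.76) and H2-Oa (1.71) had larger ratios than any classical gene, and H2-DMb1 was lower in KO (−0.53, −0.91 to −0.20). The B cell RNA list over all cells had a log2 ratio of 1.69, with B cell-like cells 11.4% of KO and 3.73% of WT cells. More B cells and more class II mRNA per cell could not be told apart in these sums.

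Among class II relatives outside the members, H2-Ea-ps was found in WT and had no UMI in KO. This gene encodes the alpha chain of the E molecule, is annotated as a polymorphic pseudogene (chr17:34341959-34344645, minus strand), and is known to be silent in some inbred mouse strains and transcribed in others. It had 0 UMIs in all 5 KO sets, an upper limit of 0.954 CPM, and 5, 8, 4, 15 and 6 UMIs in the 5 WT sets, or 53.1 CPM. The KO level was at least 55.6-fold lower. In myeloid-like cells WT had 26 UMIs (228 CPM) and KO none, at least 34.2-fold lower, with 19 of the 26 in monocyte-like cells. Both number codes of each genotype shared this: WT3 and WT4 held UMIs and KO5 and KO6 held none. The WT B cell-like cells had 0 H2-Ea-ps UMIs of 20258. H2-Eb1, which pairs with this chain, was present in both mice. H2-Eb2, the other relative in the table, is a second E beta chain gene and had 140 UMIs in KO and 8 in WT (44.5 and 11.2 CPM, log2 ratio 1.61, 0.98 to 3.23). Its sets overlapped, with 3 WT sets at 0, and 74 of the KO and 3 of the WT UMIs lay in B cell-like cells (0.40, −1.20 to 2.72). Whether the mice carried different MHC haplotypes, which would also bear on how reads of H2-DMb1, H2-DMb2 and the classical genes were counted, was not tested.

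Genes around the members were counted by the same fold. The shares of all genes higher in KO, to set beside these counts, were 31% in B cell-like, 14.6% in myeloid-like and 14.2% in stromal-like cells. Of 12 factors of class II transcription, 6 had at least 20 UMIs in B cell-like cells. Spi1, the myeloid factor PU.1, was lower in KO (29 and 6 UMIs, log2 ratio −1.88), beside 10.8% of all genes lower. Creb1, a factor that binds the X box region, had 50 and 0 UMIs there, and its KO level was under what 3 counts would give in WT, so it has no fold. In myeloid-like cells 1 of 5 was past the fold, Irf1, an interferon response factor (57 and 3 UMIs, 2.07, 0.65 to 4.59). In stromal-like cells 2 of 8 were, among them Irf8, a factor of myeloid and B cells (63 and 4 UMIs, 2.18). Of the endosomal proteases and turnover genes, Cd83 was past the fold higher in B cell-like cells (88 and 1 UMIs, 2.13, −0.27 to 7.56). Of the same list 0 of 11 were past the fold in myeloid-like cells, where Ctss, the protease that trims Cd74, had −0.10 (−0.31 to 0.12). In stromal-like cells 3 of 11 were higher: Ctss (1.27), March1, a ligase that removes class II from the surface (1.67), and Cd83, which opposes it (1.56). Of 10 MHC class I genes, 1 was higher in B cell-like cells (Tapbp, 96 and 1 UMIs) and 2 in myeloid-like cells, B2m (1.01, 0.75 to 1.29) and Psmb9 (1.02). In stromal-like cells 2 of 10 were higher, H2-Q7 (55 and 3 UMIs, 2.28, 1.18 to 5.12) and Psmb9, a subunit of the immunoproteasome (52 and 7 UMIs, 1.31, 0.35 to 2.88). The class I list as a sum ran from 3107 to 3827 CPM over the KO stromal-like sets and from 1697 to 2288 CPM over the WT sets, without overlap (log2 ratio 0.72, 0.60 to 0.84). The costimulatory genes Cd40 in B cell-like cells (56 and 1 UMIs, 1.5, −0.95 to 6.92) and Cd86 in myeloid-like cells (33 and 3 UMIs, 1.32, −0.19 to 3.83) were past the fold with intervals that included no difference.

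Outside the members, the genes most like the classical sum over 20 class and genotype values were Sla (Pearson r = 0.91), Spi1 (0.88), Cybb (0.88), Pip4k2a (0.88), Ctss (0.87), Actr2 (0.87), Napsa (0.84), Nckap1l (0.84), Mcl1 (0.83) and Snx5 (0.82), among genes with at least 200 UMIs. These points share libraries and depth. By the same measure H2-DMa had 0.95, H2-DMb1 0.90 and Ciita 0.77, whereas H2-DMb2 (0.49), H2-Oa (0.47) and H2-Ob (0.40) were less like the sum. The classical genes themselves, which make up the sum, had 0.98 to 0.99.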

How the data were processed

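Single-cell libraries were made by Seq-Well S3 from the SVF of inguinal white adipose tissue. The authors deposited a table of whole-number UMI counts by gene and cell. According to the methods, the authors demultiplexed reads with bcl2fastq 2.20, counted UMIs with dropSeqPipe (Drop-seq tools, STAR) against mm10 and GENCODE genes, levelled depth with downsampleBatches of scuttle (before or after deposit was not stated) and filtered cells on gene number and mitochondrial share. The deposited cells had 101 to 994 genes. KO sets held 1635 to 2005 cells and WT sets 196 to 768. Columns with other per-sample values numbered 0. Set codes could not be matched to single labelled samples, so cells were grouped by the genotype in their names.

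In R 4.3.3, Seurat 5.3.0 integrated the sets by anchors (30 dimensions, 2000 variable features), and 12 class II genes were left out of these features. Louvain clusters at resolution 0.8 with at least 60 cells were named when the mean log2 fold of a marker list exceeded 1 with at least 3 markers, a threshold set after the clusters were seen. Clusters without such a list stayed unnamed. Doublets were kept, since Scrublet (scanpy 1.11.5) called 33 cells (0.302%).

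UMIs were summed by class and mouse. With 1 mouse per genotype no p-value was computed. Levels are CPM with exact Poisson 95% intervals, shares have Clopper-Pearson intervals, and ratios have exact conditional intervals (SciPy 1.17.1). Log2 ratios of single genes add 5 CPM to both levels, and those of sums and lists and all intervals do not. Called genes had a log2 ratio of at least 1 and at least 20 UMIs. The floor of a count of 0 was 3 counts per mouse and class. The ratio steps were tested on simulated data. Scaling alternatives used edgeR 4.0.16 and DESeq2 1.42.0.

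All 10 members are named, with list genes past the fold and the 10 other genes most like the classical sum (log2(CPM + 20)). The members and lists were chosen with earlier results of these data known. Of the E alpha chain only the row H2-Ea-ps was used here.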

Additional observations from a re-analysis of the deposited data

Results flagged for a closer look

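In WT pericyte-like cells the set WT4_p2 stood apart from the other sets by Dixon's gap criterion, at 1183 CPM of the classical sum, while the other 3 sets with such cells had 0 UMIs. The value came from 8 UMIs in 1 of 16 cells. With the other sets at 0, any value above 0 meets this criterion, so it carries no information on the size of the gap. Of 18 groups of sets examined this was the only one, and chance alone gives about 1 in 20.

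The classical sum had opposite directions in different classes. All KO sets were above all WT sets in B cell-like, monocyte-like, stromal-like and endothelial-like cells, and below them in macrophage-like cells, where the log2 ratio of KO over WT was −0.44. The difference between classes was not tested.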

How the results depend on the processing

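No paired analysis was possible because the results come from no test, with 1 mouse per genotype. The p codes of the sets recur in both genotypes, but no source says that they mark a shared day or batch, and they were not used as pairs. Of the alternatives of the main values, 406 stayed within the spread of the sets, 33 moved beyond it and 6, in myeloid-like and T cell-like cells, changed sign. In B cell-like cells that spread rests on WT sets of as few as 2 cells. Levels and shares, which are most of these values, cannot change sign. Of the alternatives of ratios alone, 108 stayed within the spread, 1 moved and 6 changed sign. The sign change in epithelial-like cells and that of Cd74 in B cell-like cells under TMM or DESeq2 scaling are not in this count. The log2 ratio of the classical sum in myeloid-like cells (0.09) was −0.0095 with class II genes as features, −0.017 without integration and 0.35 in cells with at least 200 genes. That in T cell-like cells (−0.80) was 0.83 with class II genes as features, 0.045 without integration, 0.014 with cells called from marker UMIs and 0.033 with a naming threshold of 0.5, an alternative chosen after seeing the data. In epithelial-like cells (2.10) it was −0.66 with marker UMIs, and in monocyte-like cells (0.53) 0.19 without integration. The signs in B cell-like, monocyte-like, macrophage-like, stromal-like and endothelial-like cells held under every alternative run.

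The level in B cell-like KO cells was 16713 CPM with marker UMIs, and the share of cells with a classical UMI 94.2% without integration, 94.3% with marker UMIs, 99.1% with at least 200 genes and 93.9% thinned. The share of WT classical UMIs in B cell-like cells was 13.2% with class II genes as features. In myeloid-like KO cells the level was 18890 CPM with at least 200 genes, the share of UMIs 27.8% with marker UMIs and 36.7% with at least 200 genes, and the share of cells 69.6%, 80.1%, 71.6% without the highest Scrublet scores and 69.1% thinned. In stromal-like KO cells the level was 1820 CPM at resolution 1.2, 1815 with class II genes as features, 1996 without integration, 3930 with marker UMIs and 1753 without the highest Scrublet scores. In the same order, leaving out integration, the share of UMIs was 2.40%, 2.46%, 24.6% and 2.55%. The class then held 867, 943, 5360 and 971 cells of both mice, against 2879 in the main clusters. The share of cells was 38.3%, 37.9%, 39.6%, 57.7% and 38.4%, with 54.2% for at least 200 genes and 34.0% thinned. With marker UMIs WT stromal-like cells had 1569 CPM, 22.3% of UMIs and 25.4% of cells. Leaving out 1 set at a time gave log2 ratios of 0.62 to 0.86 in B cell-like, 0.037 to 0.13 in myeloid-like, 1.68 to 1.95 in stromal-like, 1.28 to 1.97 in endothelial-like and −1.30 to −0.47 in T cell-like cells. Members higher in B cell-like cells ran from 3 to 5 and all genes from 28.3% to 46.7%, the last without set WT4_p2. Members lower in T cell-like cells ran from 1 (without WT3_p1) to 5 (without WT4_p2 or WT4_p3). With no minimum of UMIs 51.7% of genes were higher in B cell-like, 26.2% in myeloid-like, 34.9% in endothelial-like and 43.8% in T cell-like cells. The causes were not tested. The 20258 UMIs of WT B cell-like cells limit each comparison in that class.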
